A study of Mus musculus with 14 samples.

Results

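The genes described here are 9 mouse genes of the red cell and platelet lineages: Gata1, Klf1, Hba-a1, Hbb-bt, Epor, Alas2, Pf4, Itga2b and Gp9. They were chosen by name, not by any measured value, from 21883 protein-coding genes placed on build GRCm38. Earlier results of these data were known when they were chosen. A ChIP-seq peak was counted at a gene when at least 1 bp of it overlapped the gene body extended by 10 kb on each side. Of all the peaks in 9 lists, 70 met that rule, and they fell at 19 sites around 6 of the genes.

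The series, by its title, concerns recruitment of Brg1 to chromatin by the C-terminal domain of EBF1, a B-cell transcription factor. Brg1 (gene Smarca4) is the motor subunit of BAF complexes, which slide or evict nucleosomes. Of 14 samples, 9 are ChIP libraries and 5 are inputs, and each group held 1 library. In fetal liver cells, Brg1 was profiled in 5 libraries. These cells were c-kit+ progenitors of C57BL/6 EBF1 -/- embryos of day 16 to 18, so every one of the 5 groups lacked endogenous EBF1. They were transduced with a pMys vector and grown for 14 to 20 days on OP9 stroma with IL7 (5 ng/ml), SCF (10 ng/ml) and Flt3 (10 ng/ml). The vectors carried GFP alone (empty), EBF1 wt, dC (C-terminal domain deleted), dPLD (residues 480 to 520 deleted) or F-GATA3 (C-terminal domain replaced by the TA1 domain of GATA3). By their labels, the cells with the empty vector were blocked short of the pro-B stage, those with dC and dPLD were partly so, and those with wt and F-GATA3 had reached it, so EBF1 version and stage cannot be told apart. The other 4 libraries came from pro-B cells of C57BL/6 EBF1 fl/fl fetal liver, transformed by Abelson virus (A-MuLV), in which EBF1 was replaced by wt or dC. Brg1 was profiled in 2 of them and EBF1 itself in the other 2.

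GATA1 and KLF1 are the DNA-binding factors that drive red cell genes, KLF1 through CACCC-type elements of the adult globin genes. GATA1 also acts in megakaryocytes, the cells that shed platelets, where Pf4, Itga2b and Gp9 are lineage genes. BAF complexes with Brg1 are known from red cells, where they open the globin loci. All the cells here were cultured for lymphoid growth, and RNA was not analysed here.

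The fetal liver lists held 17687 (empty vector, the shortest) to 30301 Brg1 peaks. The A-MuLV lists held 24493 (wt) and 24420 (dC) for Brg1, and 6155 (wt) and 11147 (dC) for EBF1. Because sequencing depth is unknown, the lack of a peak at a gene does not show that Brg1 was absent, and a peak seen in fewer cells cannot be told from a weaker peak in every cell. Markers of the B lineage had a Brg1 peak at 8 of 8 genes with each EBF1 version and at 4 of 8 with the empty vector. Those 4 include Vpreb1 and Igll1, which had the same highest fold in every list and so do not count separately. Over all protein-coding genes, a peak was called at 45.2% with the empty vector and at 60% to 63.3% with the EBF1 versions. Of the 6 markers of OP9-type stroma, 1 had a peak in each fetal liver list but F-GATA3, which had 0. It was Pdgfrb with the empty vector (fold 12.8) and Col1a1 with wt, dC and dPLD (5.48 to 6.19). Of 5 mast cell markers, Hdc had a peak in every fetal liver list, and Cpa3, Fcer1a, Ms4a2 and Cma1 had none. Of 6 myeloid markers, 3 to 5 had a peak, and of 5 T-lineage markers, 4 in each of those lists. The part of other cell types in the results was not tested.

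Promoters of 3 genes are shown because fetal liver Brg1 peaks reached them in some lists only. Each runs 5′ to 3′ on the gene's strand from 250 bases before to 50 bases after the transcription start, from RefSeq (GRCm38.p6): Hbb-bt at chr7:103813874-103814173 on the minus strand, Pf4 at chr5:90772185-90772484 on the plus strand and Gp9 at chr6:87777820-87778119 on the plus strand. Capitals mark the letters of a GATA-factor element (GATA with A or T before it and A or G after it) or a KLF element (CCNCNCCC), searched on both strands.
Hbb-bt: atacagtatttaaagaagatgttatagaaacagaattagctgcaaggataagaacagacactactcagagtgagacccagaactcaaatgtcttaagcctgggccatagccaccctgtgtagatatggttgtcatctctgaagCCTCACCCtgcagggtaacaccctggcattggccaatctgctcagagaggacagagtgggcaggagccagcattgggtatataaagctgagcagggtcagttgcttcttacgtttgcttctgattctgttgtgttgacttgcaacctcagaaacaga
Pf4: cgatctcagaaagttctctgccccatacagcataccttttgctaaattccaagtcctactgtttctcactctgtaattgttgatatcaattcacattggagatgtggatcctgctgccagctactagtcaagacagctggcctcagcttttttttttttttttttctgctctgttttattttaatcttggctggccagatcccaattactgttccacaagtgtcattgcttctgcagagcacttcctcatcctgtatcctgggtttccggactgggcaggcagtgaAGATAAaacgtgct
Gp9: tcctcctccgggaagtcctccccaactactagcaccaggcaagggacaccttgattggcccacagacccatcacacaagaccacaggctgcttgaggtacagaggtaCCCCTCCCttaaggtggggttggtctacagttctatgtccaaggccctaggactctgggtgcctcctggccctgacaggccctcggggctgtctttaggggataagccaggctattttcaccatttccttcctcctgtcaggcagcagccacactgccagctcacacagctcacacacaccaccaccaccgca
The Hbb-bt window held CCTCACCC 107 bases before the start, the Pf4 window AGATAA with its first base at position 36 after the start, and the Gp9 window CCCCTCCC 143 bases before the start. All 9 promoters were matched in the RefSeq table of 17491 genes. GATA letters were present in 5 of them (Klf1, Hba-a1, Epor, Alas2 and Pf4), against 26.7% of all promoters. CCNCNCCC was present in 6 (Gata1, Hbb-bt, Epor, Alas2, Itga2b and Gp9), against 55.8%, and some of its matches overlap one another. The stricter CCACACCC was found in 0 of 9 (3.63% of all promoters) and the ETS letters CCGGAAG in 0 of 9 (11.9%). Letters of the kind EBF1 binds, CCCNNGGG, were in 4 (Gata1, Hba-a1, Itga2b and Gp9), against 15.3%. These are matches of letters, not binding sites.

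In the fetal liver cells, 3 of the 9 genes had a Brg1 peak with the empty vector and 6 with each EBF1 version. Klf1, Hbb-bt and Itga2b had peaks in all 5 lists. Epor, Pf4 and Gp9 had a peak with wt, dC, dPLD and F-GATA3 and none with the empty vector. Gata1, Hba-a1 and Alas2 had none in any of the 9 lists. For Epor and Gp9, the peak shared by the 4 versions lay at Swsap1 and in Rab43, outside the gene's own body. With gene bodies alone, genes with a peak and none with the empty vector were 1 (wt), 2 (dC), 1 (dPLD) and 1 (F-GATA3). Over all protein-coding genes, a peak was called at 45.2% with the empty vector, 62.9% with wt, 63.3% with dC, 61.7% with dPLD and 60% with F-GATA3. Genes with a peak with the EBF1 version and none with the empty vector made up 20.7% (wt), 20.7% (dC), 19.7% (dPLD) and 18.7% (F-GATA3) of all genes. The 3 of 9 here (33.3%, exact Clopper-Pearson 95% interval 7.49% to 70.1%, counting error only) span all of those shares. Of all genes with an empty-vector peak, 89.3% had a peak with all 4 versions, as did 3 of 3 here. The genes are short, with a median length of 3656 bp against 17170 bp, so their windows hold less sequence than most.

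Counted as peaks, 4 lay near the genes with the empty vector, 10 with wt, 12 with dC, 13 with dPLD and 10 with F-GATA3. Those that overlapped no empty-vector peak were 8 of 10 with wt (63.9% of the whole list), 8 of 12 with dC (62.1%), 10 of 13 with dPLD (61.2%) and 8 of 10 with F-GATA3 (60.5%). The intervals of all 4 shares hold the value of the whole list, from 44.4% to 97.5% for wt to 34.9% to 90.1% for dC. In the other direction, 2 of the 4 empty-vector peaks overlapped no wt peak (38.7% of the list), 0 no dC peak (32.6%), 1 no dPLD peak (37.3%) and 2 no F-GATA3 peak (42.7%). Of the 10 wt peaks, 6 were also called with all 3 altered versions and not with the empty vector (36.6% of the list). Those 6 sites lay at Dnase2a, before and after Pf4 (1 site each), before Hbb-bt, at Swsap1 near Epor and in Rab43 near Gp9.

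**Figure D1:**
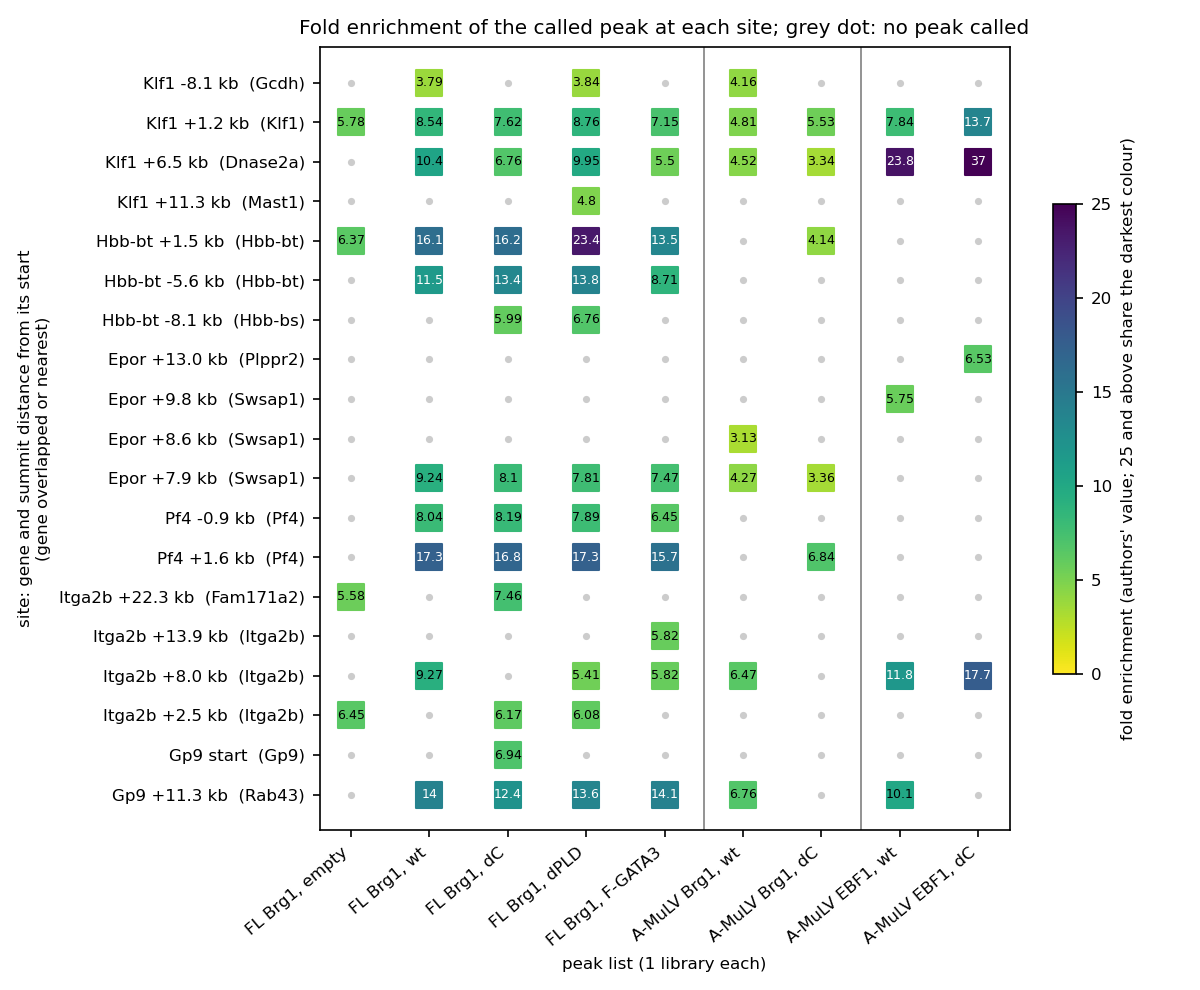
Fold enrichment of the called Brg1 or EBF1 peak (colour and number) at each of the 19 sites (rows) in each of the 9 lists (columns, 1 library each), with a grey dot where no peak was called and the gene overlapped or nearest in parentheses. The Pf4 and Hbb-bt rows are empty in the empty-vector column except the site 1.52 kb after the Hbb-bt start, and both EBF1 columns are filled at Klf1, Dnase2a and Itga2b, with EBF1 wt alone at Rab43 and 1 weak EBF1 peak per column near Epor.

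Fold enrichment is the authors' value for a peak, the ratio of the ChIP signal at the summit to the local background. It is used here to describe peaks and rank them within 1 list, and lists are not scaled to each other. Positions are those of the summit from the transcription start of the gene, in kb, negative before the start.

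Gata1 (gene body X, 7959260 to 7976663, minus strand) encodes the zinc finger factor of red cells and megakaryocytes. Its nearest peak lay 93.3 kb from the gene body with the empty vector, 10.9 kb with wt, and 59.3 to 59.5 kb with dC, dPLD and F-GATA3. The wt peak (fold 5.2) had a −log10 q of 10.2, next to the lowest value in that list (10.0), and fell just outside the window. In A-MuLV cells the nearest Brg1 peaks were 74.8 kb (wt) and 93.6 kb (dC) away. Alas2 (X, 150547417 to 150570622, plus strand), which encodes the first enzyme of haem synthesis in red cells, had its nearest fetal liver peaks 17.3 to 17.4 kb away with wt, dC and F-GATA3, 68.5 kb away with dPLD and 88.1 kb away with the empty vector. Hba-a1 (11, 32283672 to 32284486, plus strand), an adult alpha-globin gene, had its nearest peak 11.9 to 12.1 kb away with each EBF1 version and 56.7 kb away with the empty vector. Lacking a peak in all 9 lists was common, at 29.5% of all genes. Hba-a1 and Hba-a2 are near-identical copies, so the placement of reads between them is uncertain.

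Klf1 (8, 84901982 to 84905291, plus strand) encodes the KLF factor of red cells, and it was the only one of the 9 with a peak in its own body in every list. The summit lay between 0.75 and 1.48 kb after the start. In fetal liver cells its fold was 5.78 with the empty vector, 8.54 with wt, 7.62 with dC, 8.76 with dPLD and 7.15 with F-GATA3. These peaks ranked in the middle of their lists, with 39.2% (empty vector) to 72.2% (dPLD) of the same list at a lower fold. A second site, 6.54 kb after the Klf1 start, overlapped the promoter of Dnase2a, which encodes the lysosomal nuclease DNase II. There no peak was called with the empty vector, and the folds were 10.4 with wt, 6.76 with dC, 9.95 with dPLD and 5.5 with F-GATA3. Within their own lists these peaks stood above 80.1% (wt), 44.7% (dC), 81.4% (dPLD) and 22.9% (F-GATA3) of peaks. A weak peak at the promoter of Gcdh, an enzyme of lysine breakdown, was called with wt (3.79) and dPLD (3.84) only, and another in Mast1, a kinase gene, with dPLD only (4.8). Both Gcdh peaks were among the lowest in their lists, where 0.382% and 0.679% of peaks had a lower fold.

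Hbb-bt (7, 103812524 to 103813923, minus strand) is an adult beta-globin gene. It had a peak at its 3′ end in all 5 fetal liver lists, and with dPLD that peak had the highest fold of the 13 near the genes. The summit lay 1.44 to 1.62 kb after the start, 43 to 225 bp past the end of the gene. Its fold was 6.37 with the empty vector, 16.1 with wt, 16.2 with dC, 23.4 with dPLD and 13.5 with F-GATA3. The share of its own list at a lower fold was 55.3% for the empty vector, and for the EBF1 versions 99.8% (dPLD), 96.2% (dC), 95.5% (wt) and 94.8% (F-GATA3). The lists differ in length, so these ranks place the peak in each list and show no change between them. Peak width also varied, from 1078 bp with the empty vector to 2175 bp (wt), 2260 bp (F-GATA3), 2865 bp (dPLD) and 4243 bp (dC). A second site at −5.55 kb, between Hbb-bt and the next globin gene Hbb-bs, had no empty-vector peak and folds of 11.5 (wt), 13.4 (dC), 13.8 (dPLD) and 8.71 (F-GATA3). A further site, at −8.15 kb, was called with dC (5.99) and dPLD (6.76) only, with a −log10 q of 13.3 and 16.7. That site was called in 0 lists at a −log10 q of at least 20, and in 0 with lists of equal length. The dC and dPLD calls there therefore depend on the threshold. Hbb-bt and Hbb-bs are near-identical in sequence, so the placement of reads between their bodies is uncertain.

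**Figure D2:**
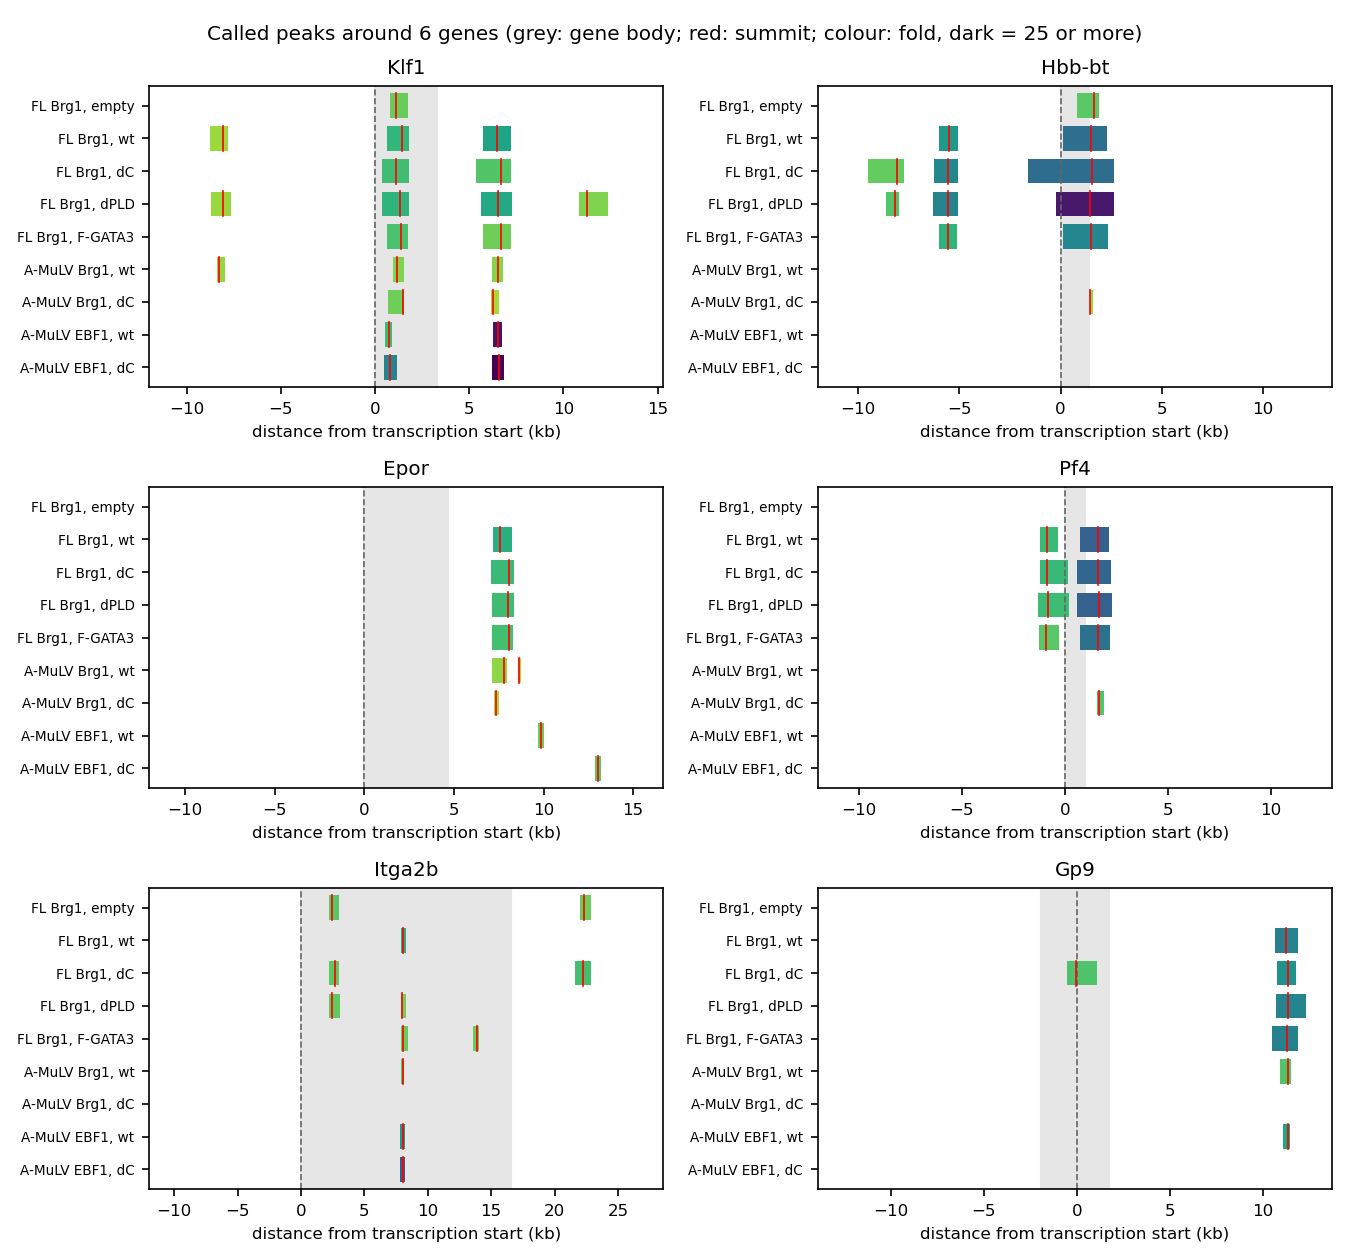
Called peaks (bars) around 6 genes by distance from the transcription start in kb (x axis) in the 9 lists (y axis, 1 library each), with the gene body in grey, the start as a dashed line, the summit in red and darker colour for higher fold. Peaks at Epor lie outside the gene body, those at Gp9 do so except the dC peak at the start, and Itga2b has peaks at different positions in different lists.

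Epor (9, 21958897 to 21963576, minus strand) encodes the erythropoietin receptor, which red cell precursors need to survive. No peak in any list overlapped its body. What the window caught was a site 7.89 kb after the start at the promoter of Swsap1, which encodes a protein of homologous recombination. Fold there was 9.24 with wt, 8.1 with dC, 7.81 with dPLD and 7.47 with F-GATA3, and no peak was called with the empty vector. The nearest peak with the empty vector was 38.6 kb from Epor.

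Pf4 (5, 90772435 to 90773383, plus strand) encodes platelet factor 4, a chemokine stored in platelet granules. It had 0 peaks with the empty vector and 2 with each EBF1 version. The stronger had its summit 1.62 kb after the start, 639 to 679 bp past the gene's end. Its fold was 17.3 with wt, 16.8 with dC, 17.3 with dPLD and 15.7 with F-GATA3, above 96.7%, 96.8%, 98.1% and 97.6% of the respective list. The weaker, at −0.86 kb, had folds of 8.04, 8.19, 7.89 and 6.45 in the same order. The 4 versions were thus close to one another in peak position at both sites, with summits spread over 44 bp (after the gene, the A-MuLV dC peak included) and 71 bp. The empty-vector list had its nearest peak 29.7 kb away.

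Itga2b (11, 102453297 to 102469883, minus strand) encodes the alpha chain of the platelet fibrinogen receptor, also known as CD41. It had a peak in every fetal liver list, but not at the same place. At 2.46 kb after the start, in the gene body, a peak was called with the empty vector (6.45), dC (6.17) and dPLD (6.08) and not with wt or F-GATA3. At 8.03 kb, also in the body, a narrow peak was called with wt (9.27), dPLD (5.41) and F-GATA3 (5.82) and not with the empty vector or dC. Only the dPLD list held both. The combination at the first site (empty vector, dC and dPLD, with neither wt nor F-GATA3) was picked from this peak, 1 of the 4 empty-vector peaks here, and is given as a description only. It held for 2.6% of the whole empty-vector list. That share cannot be set against the 1 of 4 here, which was fixed by the choice of this peak. Further sites lay at 22.28 kb in Fam171a2 (empty vector 5.58, dC 7.46) and at 13.88 kb in the body (F-GATA3 5.82).

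Most Itga2b body peaks had a low −log10 q, in lists whose lowest value is 10.0. At 2.46 kb it was 14.7 (empty vector), 16.7 (dC) and 14.0 (dPLD), and at 8.03 kb it was 28.9 with wt but 11.4 with dPLD and 12.7 with F-GATA3. When all 5 lists were held to the length of the shortest, the first site was called in 1 list, that of the empty vector, which is the shortest and so was not trimmed, and the second in 1, that of wt. With a −log10 q of at least 20, the first was called in 0 lists, the empty-vector call being lost as well, and the second in 1, again wt. The position of the Itga2b peak in each list therefore depends on the threshold, except for the wt peak at 8.03 kb.

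Gp9 (6, 87776131 to 87779786, plus strand) encodes glycoprotein IX of the platelet receptor for von Willebrand factor. The start used, at 87778070, lies inside the annotated gene. In 4 lists its peak was 11.33 kb after that start in Rab43, a gene of a small GTPase, with folds of 14.0 (wt), 12.4 (dC), 13.6 (dPLD) and 14.1 (F-GATA3), above 92.4%, 88.7%, 94.1% and 95.8% of the respective list. No peak was called there with the empty vector. At Gp9 itself a peak was called only with dC (6.94), with its summit 29 bp before the start and a −log10 q of 17.7. That site was called in 0 lists at a −log10 q of at least 20, and in 0 with lists of equal length. The dC call at the Gp9 promoter therefore depends on the threshold.

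At the 3 genes whose promoters are printed above, peaks reached the 300 base promoter window with dC, and with dPLD at Hbb-bt and Pf4 only. They did not reach it with the other vectors. Promoters of 3 of the 9 genes were overlapped with dC (Hbb-bt, Pf4 and Gp9) and of 2 with dPLD (Hbb-bt and Pf4), against 47.1% and 45.7% of all promoters. With the empty vector, wt and F-GATA3 it was 0 of 9, against 22.3%, 45.8% and 43.3% of all promoters, and the exact 95% interval of 0 of 9 runs to 33.6%. At Hbb-bt and Pf4 the summits did not lie in the promoter. The dC peaks at both genes and the dPLD peak at Pf4 spanned the whole window. The dPLD peak at Hbb-bt had its edge inside the window, at −209 bp from the start. The Hbb-bt peak ended 101 bp after the start with wt and 100 bp after it with F-GATA3, just short of the window, and passed the start with dC and dPLD. Median peak width was 1248 bp (dC) and 1325 bp (dPLD) against 978 bp (empty vector), 1103 bp (wt) and 1139 bp (F-GATA3). Over all promoters, the share overlapped was 45.7% with dPLD, whose median was the widest, and 45.8% with wt. The part of peak width was not tested.

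**Figure D3:**
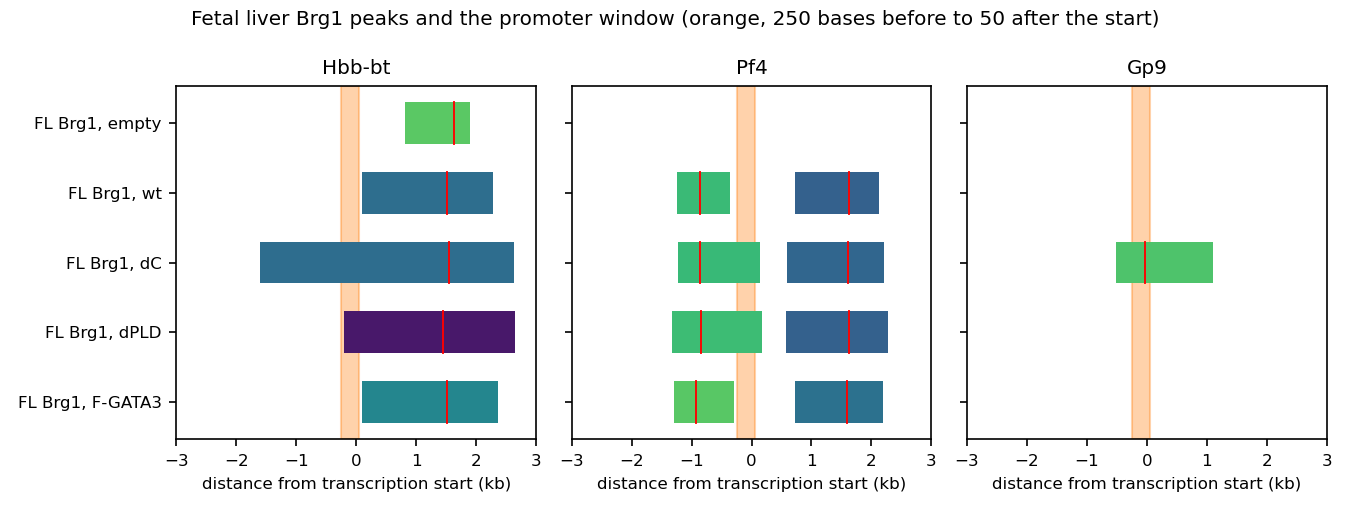
Fetal liver Brg1 peaks (bars, darker for higher fold, summit in red) by distance from the transcription start in kb (x axis) for the 5 vectors (y axis, 1 library each), with the promoter window in orange. At Hbb-bt and Pf4 the dC and dPLD bars reach into the window, the wt and F-GATA3 bars stop short of it, and at Gp9 only the dC list has a bar.

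Of the 16 sites with a fetal liver peak, 2 were called in all 5 lists and 6 with all 4 EBF1 versions and not with the empty vector, and the others lacked a call with at least 1 version. Of the 10 wt peaks, 2 overlapped no dC peak (16.4% of the wt list), the Gcdh site and the Itga2b site at 8.03 kb. All 10 overlapped a dPLD peak (0 did not, against 16.4%), and 1 overlapped no F-GATA3 peak (23%), the Gcdh site. Of the altered versions' own peaks, 4 of 12 with dC overlapped no wt peak (20.8% of the list), 3 of 13 with dPLD (13.1%) and 1 of 10 with F-GATA3 (9.36%). The 4 with dC were at Gp9, before Hbb-bt at −8.15 kb, at Itga2b 2.46 kb and in Fam171a2. With such counts the exact intervals are wide, 9.92% to 65.1% for dC, and hold the share of the list in each case. With lists of equal length, none of those 4 sites kept a dC call. At a −log10 q of at least 20, only the Fam171a2 site did. Of the 2 wt peaks without a dC peak, the Gcdh call was lost under both rules and the Itga2b call was kept under both.

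In the A-MuLV cells, Brg1 peaks lay near Klf1, Epor, Itga2b and Gp9 with wt (4 of 9 genes, against 52.2% of all genes) and near Klf1, Hbb-bt, Epor and Pf4 with dC (4 of 9, against 52.1%). There were 7 peaks with wt and 5 with dC, and 3 sites were called with both. At the Klf1 body the fold was 4.81 with wt and 5.53 with dC, at Dnase2a 4.52 and 3.34, and at Swsap1 4.27 and 3.36. Called with wt alone were 4 of 7 peaks (37.6% of the list): the Gcdh promoter (4.16), a second peak near Swsap1 (3.13), Itga2b at 8.03 kb (6.47) and Rab43 (6.76). Called with dC alone were 2 of 5 (34.4%), both just past a gene's end, at Hbb-bt (4.14) and Pf4 (6.84).

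By gene, Itga2b and Gp9 had an A-MuLV peak with wt and none with dC, a call made at 4.29% of all genes. Hbb-bt and Pf4 had a peak with dC and none with wt, a call made at 4.17% of all genes. The exact 95% interval of 2 of 9, 2.81% to 60.0%, holds both shares. These lists hold weaker peaks than the fetal liver lists, with −log10 q down to 1.37 (wt) and 1.33 (dC). Of the 12 A-MuLV Brg1 peaks near the genes, 1 had a −log10 q of at least 10, the wt peak in Rab43 (10.4), and the dC peak at Pf4 had 9.96. With a minimum of 10, chosen after the data were seen, 1 wt peak and 0 dC peaks remained. With summits no more than 200 bp apart as the rule, 0 sites were shared, against 3 by overlap, so the split between wt and dC depended on how a shared site was defined.

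EBF1 itself was found near 4 of the 9 genes with wt (19.9% of all genes) and 3 with dC (32.9%). The Dnase2a promoter held the strongest site, with folds of 23.8 (wt) and 37.0 (dC), above 94.8% and 99.0% of the respective list. In the Klf1 body the folds were 7.84 and 13.7, with the summit 0.75 kb (wt) and 0.78 kb (dC) after the start. At Itga2b 8.03 kb they were 11.8 and 17.7, and in Rab43 a wt peak (10.1) had no dC counterpart. Near Epor, each list had its own weak peak, at 9.85 kb with wt (5.75) and at 13.02 kb with dC (6.53), in a stretch that holds Swsap1 and Plppr2. So 2 of 5 wt peaks overlapped no dC peak (23.3% of the list) and 1 of 4 dC peaks no wt peak (57.9%). No EBF1 peak was called in the windows of Gata1, Hba-a1, Hbb-bt, Alas2 or Pf4. The Brg1 peaks at Hbb-bt and Pf4 therefore had no EBF1 peak in the same window. Outside the Hbb-bt window, an EBF1 dC peak (fold 6.57) lay in Hbb-bs, 12.6 kb from the Hbb-bt body.

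Sites with both proteins were the Klf1 body, Dnase2a, Itga2b at 8.03 kb and Rab43. EBF1 was measured in A-MuLV cells only, so this sets fetal liver Brg1 beside EBF1 of another cell type. Overlap was counted with an EBF1 peak of either list, wt or dC, whatever the EBF1 version of the Brg1 library. Of the fetal liver Brg1 peaks near the genes, 1 of 4 (empty vector), 4 of 10 (wt), 3 of 12 (dC), 4 of 13 (dPLD) and 4 of 10 (F-GATA3) overlapped an EBF1 peak. Over the whole lists the shares were 11.9%, 22.4%, 18.8%, 21.9% and 23.9%. In A-MuLV cells 4 of 7 (wt) and 2 of 5 (dC) did, against 26.4% and 22.3%. Each interval held the share of its list. The A-MuLV wt Brg1 peak in the Klf1 body overlapped the EBF1 dC peak and not the EBF1 wt peak. The fetal liver dC peak in Rab43 overlapped an EBF1 wt peak only.

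The 40 other genes of the 2 lineages were taken from textbook knowledge, with the results on the whole series known. A fetal liver Brg1 peak lay near 19 of them with the empty vector, 29 with wt, 30 with dC, 29 with dPLD and 26 with F-GATA3. In percent these were 47.5%, 72.5%, 75.0%, 72.5% and 65.0%, beside 45.2%, 62.9%, 63.3%, 61.7% and 60% of all genes. By lineage, 11, 16, 15, 14 and 14 of 23 erythroid genes had one, and 9, 14, 16, 16 and 13 of 18 megakaryocyte genes, Nfe2 being in both lists. A peak with the EBF1 version and none with the empty vector was seen at 12 (wt), 12 (dC), 12 (dPLD) and 9 (F-GATA3) of the 40, or 30.0%, 30.0%, 30.0% and 22.5%, beside 20.7%, 20.7%, 19.7% and 18.7% of all genes. These genes are not all separate from the 9, since Ppbp shares the Pf4 peaks and the highest Hbb-bs folds with the EBF1 versions are those of the Hbb-bt site at −5.55 kb. With wt the highest folds were near Slc25a37, the mitochondrial iron importer (19.6), Ppbp, a platelet chemokine (17.3), Zfpm1, the GATA1 cofactor FOG1 (15.6), and Gfi1b, a repressor of both lineages (13.6). With the empty vector they were near Nfe2, a factor of globin and platelet genes (10.4), Itgb3, the beta chain partnering Itga2b (9.61), Selp, which encodes P-selectin (9.40), and Runx1 (9.27). With dC they were near Selp (18.2), Ppbp (16.8), Slc25a37 (14.8) and Gfi1b (14.4). With dPLD they were near Ppbp (17.3), Slc25a37 (15.5), Runx1 (14.3) and Selp (13.9), and with F-GATA3 near Slc25a37 (17.3), Ppbp (15.7), Zfpm1 (13.9) and Nfe2 (13.8).

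In A-MuLV cells, 18 of the 40 had a Brg1 peak with wt and 18 with dC (45.0% each, beside 52.2% and 52.1% of all genes). EBF1 peaks lay near 10 with wt (25.0%, beside 19.9% of all genes) and 20 with dC (50.0%, beside 32.9%). For all shares of the 40, no interval was computed and gene length was not accounted for. A difference from all genes was not tested. The highest EBF1 folds were near Zfpm1 (19.1 with wt, 33.1 with dC), Fli1, an ETS factor of megakaryocytes (18.0 and 27.3), Gfi1b (14.9 and 24.9) and Selp (15.6 and 19.6).

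**Figure D4:**
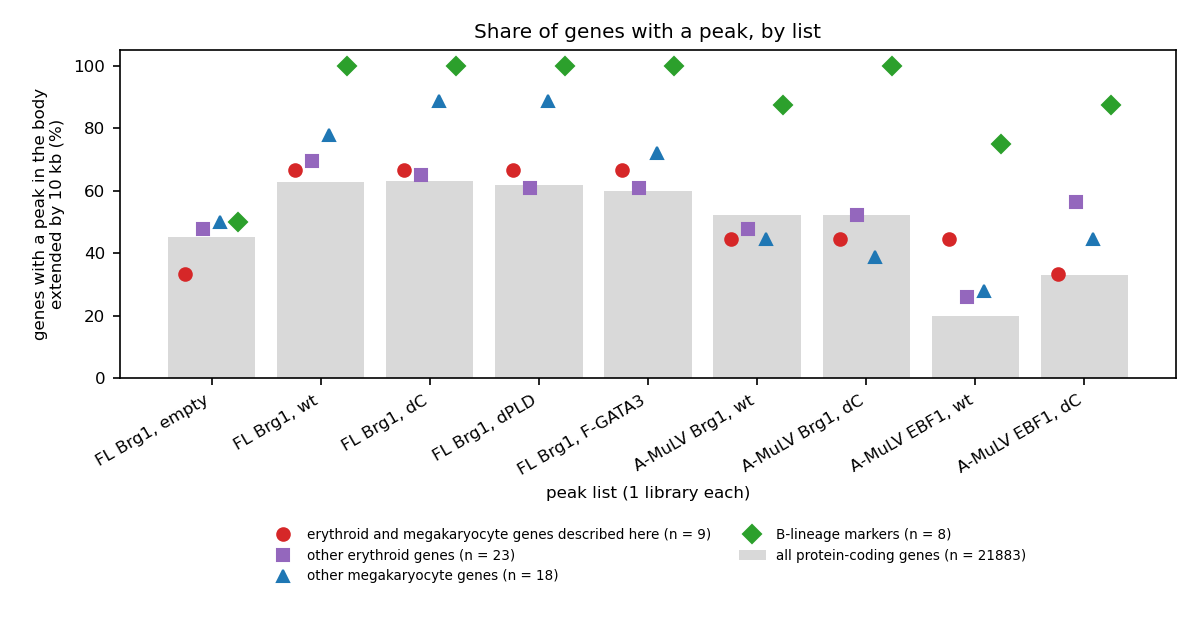
Percent of genes with a peak in the body extended by 10 kb (y axis) in each of the 9 lists (x axis, 1 library each), with bars for all protein-coding genes and points for 4 gene groups. The 9 genes move from 33.3% with the empty vector to 66.7% with each EBF1 version, beside bars of 45.2% and of 60% to 63.3%, while B-lineage markers reach 100.0%.

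For the 3 genes with the most Brg1 peaks, the highest fold in each of the 7 Brg1 lists was compared with that of every protein-coding gene whose window does not overlap theirs. A list with no called peak entered as 0, which is a convention and not a measured absence, and the distances depend on it. Nearest to Klf1 were Accsl (Euclidean distance 1.76 in fold units) and Elmod3 (1.9), to Hbb-bt Ccr2 (6.63) and Oasl1 (7.04), and to Itga2b Epha6 (1.6) and Atg9a (2.08).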

How the data were processed

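Peak lists of 9 ChIP-seq libraries were used, on build GRCm38 per the submitters' processing notes, which list MACS2 2.1.2, deepTools 3.3.1, Bowtie2 2.3.3.1 and SAMtools 1.9 with no order. The inputs, reads and signal tracks were not used here. In each list the authors deposited a fold enrichment (a ratio), −log10 p and −log10 q values at the summit, and a score, which was 10 times the −log10 q. Not given in the sources used here were the peak threshold, which input was paired with which library, and what was done with duplicate reads. Fixation differed per the labels' protocols: fetal liver cells had EGS and 2% formaldehyde, A-MuLV cells EGS and 1% formaldehyde before Brg1 ChIP, and 1% formaldehyde with no EGS before EBF1 ChIP.

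Gene bodies, starts and promoters came from RefSeq tables for GRCm38.p6, which hold no exons. Chromosomes 1 to 19, X and Y were used. Sites are peaks of any list joined where they overlapped by at least 1 bp. Shares carry exact Clopper-Pearson 95% intervals (Python 3.11.15, pandas 2.3.3, numpy 2.4.6, scipy 1.17.1), which cover counting error only. With 1 library per group there was no test between conditions, and overlap counting was tested on simulated intervals. All 9 genes are named, with the 4 other lineage genes of highest fold in a list, any gene that a described peak overlaps or lies nearest, and the 2 genes nearest in fold profile to each of the 3 genes with the most Brg1 peaks. The genes and lists were chosen with earlier results of these data known. The alternatives were other gene windows, summit placement, a stricter −log10 q, lists of equal length and other overlap rules.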

Additional observations from a re-analysis of the deposited data

How the results depend on the processing

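Each of 29 counts was recomputed under up to 8 alternatives, and 107 of 162 alternative values stayed within 1.5 times the reported count. Placing peaks by summit changed 0 of 29 by more than that, and an overlap of 50% of the shorter peak 0 of 7. With the gene body alone, fetal liver peaks numbered 4 (wt), 6 (dC), 6 (dPLD) and 5 (F-GATA3), of which 2, 3, 3 and 3 shared no empty-vector site. Genes with a peak were then 3 with the empty vector, 4 with wt, 5 with dC, 4 with dPLD and 4 with F-GATA3. Genes with a peak and none with the empty vector were 1 each with wt, dPLD and F-GATA3, and 2 with dC. A-MuLV Brg1 peaks were 1 for wt alone, 1 shared and 0 for dC alone, and EBF1 peaks 2 (wt, at 2 genes) and 2 (dC). With 50 kb, the empty-vector list had 14 peaks at 6 genes. The wt, dC, dPLD and F-GATA3 lists had 28, 36, 33 and 26 peaks at 9, 8, 7 and 8 genes. Of those peaks, 18, 23, 21 and 16 shared no empty-vector site. Genes with a peak and none with the empty vector were 3 (wt), 2 (dC), 1 (dPLD) and 2 (F-GATA3). A-MuLV Brg1 peaks were then 7 for wt alone, 16 shared and 4 for dC alone, and EBF1 dC peaks 11 at 6 genes. At a −log10 q of at least 20, the empty-vector list had 0 peaks at 0 genes, so genes with a peak in the version alone rose to 6 (wt), 6 (dC), 5 (dPLD) and 5 (F-GATA3). Then dPLD had 8 peaks, EBF1 wt 3, and the A-MuLV Brg1 counts were 0, 0 and 0. With lists of equal length, dPLD had 8 peaks (6 without an empty-vector site), and 1 gene, Itga2b, had an empty-vector peak and none with dC, with dPLD or with F-GATA3. With summits no more than 200 bp apart, A-MuLV Brg1 peaks were 7 for wt alone, 0 shared and 5 for dC alone. With A-MuLV Brg1 lists held to a −log10 q of at least 10, added after the data were seen, they were 1, 0 and 0. No paired analysis was possible because each group had 1 library. Depth is unknown, so no count of absent peaks carries a detection limit, and leaving out a library leaves no value for its group.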

Other observations

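The globin clusters were looked at beyond the 10 kb windows, a choice made after their values were seen. The counts of peaks per cluster have no matching share over all genes. In the beta-globin cluster, 2 Brg1 peaks were called with the empty vector, 3 with wt, 6 with dC, 5 with dPLD and 3 with F-GATA3, and in A-MuLV cells 0 with wt and 1 with dC. A peak upstream of Hbb-y, the embryonic gene at the end of the cluster nearest the locus control region, was called with the empty vector (fold 8.47, 7.96 kb before the start), dC (8.65, 7.86 kb) and dPLD (6.76, 7.87 kb). It was not called with wt or F-GATA3, and its −log10 q was 24.0, 26.4 and 16.7. The same combination of calls held for 2.6% of the whole empty-vector list. This peak was picked after its values were seen and is given as a description only. The adult gene Hbb-bs had a peak in its body with wt (6.3), dC (10.3), dPLD (8.48) and F-GATA3 (6.18) and none with the empty vector, and EBF1 dC had one there as well (6.57). The embryonic gene Hbb-bh1 had one with dC only (5.26).

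The alpha-globin cluster had 0 Brg1 peaks with the empty vector and 2 with each EBF1 version. One lay 5.18 to 5.26 kb before the start of Hba-x, the embryonic alpha-type gene, with folds of 5.46 (wt), 6.67 (dC), 5.88 (dPLD) and 5.5 (F-GATA3). Its −log10 q was low, at 11.2, 16.8, 13.2 and 11.1 in the same order, in lists whose lowest value is 10.0. The other lay in Nprl3, whose introns are known to hold alpha-globin enhancers, 9.01 to 9.12 kb before that start, with folds of 7.08, 7.09, 5.44 and 5.8 in the same order. The −log10 q of the Nprl3 peak was 30.9, 34.2, 22.7 and 24.0. It was also called in A-MuLV cells with wt (6.76) and dC (5.47), and EBF1 dC had a peak there (8.31).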
